A study of Mus musculus with 12 samples.

Results

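BDNF, the other neurotrophins and their receptors were examined in the prefrontal cortex of mice after repeated cocaine. The members were 6 genes chosen by name, the ligands Bdnf and Ntf3, the receptor tyrosine kinases Ntrk2 and Ntrk3, the low-affinity receptor Ngfr and the sorting receptor Sort1, out of 39036 named genes found in the tables of all 3 time points. The animals were male C57BL/6 mice (C57BL/6 J in the methods) aged 10 weeks that received intraperitoneal cocaine (20 mg/kg per day) or saline as the control for 14 days, and the bilateral prefrontal cortex was taken 2 h, 24 h or 7 d after the final dose. The 6 groups (control and cocaine at each time) comprised 12 libraries, 2 per group, and each library pooled tissue from 5 mice. The authors deposited 1 pooled value per group and time point in FPKM (fragment counts normalised to transcript length and to the mapped fragments), so no spread between libraries could be computed and no test was made; every difference given here is a description of those pooled values.

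Neurotrophins are secreted growth factors that are made as larger precursors and cleaved to the mature form. Mature BDNF signals through TrkB, the product of Ntrk2, and neurotrophin-3, the product of Ntf3, mainly through TrkC, the product of Ntrk3. The precursors bind p75NTR, the product of Ngfr, together with sortilin, the product of Sort1. In the cortex, Bdnf is transcribed from several alternative starts in excitatory neurons and is known for its response to neuronal activity, and Ntrk2 is transcribed in neurons and astrocytes.

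The levels of the members, which FPKM sets per length of transcript, spanned from under 1 to about 90 FPKM and kept 1 order in all 6 groups. Sort1 was the most abundant member and lay between 72.6 and 91.0 FPKM, followed by Ntrk2 between 59.5 and 75.4 FPKM. These ranges overlapped, although Sort1 was above Ntrk2 within every group. Ntrk3 lay between 13.3 and 18.2 FPKM, Bdnf between 6.62 and 8.05 FPKM, Ntf3 between 0.689 and 1.27 FPKM and Ngfr between 0.131 and 0.215 FPKM, and none of these ranges overlapped its neighbour. Levels set across time points come from tables that were normalised separately. Between the control groups of different time points the middle 90% of 12613 genes ran from -0.28 to 0.36 (24 h over 2 h), from -0.36 to 0.41 (7 d over 2 h) and from -0.42 to 0.39 (7 d over 24 h) on the log2 scale of FPKM.

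**Figure D1:**
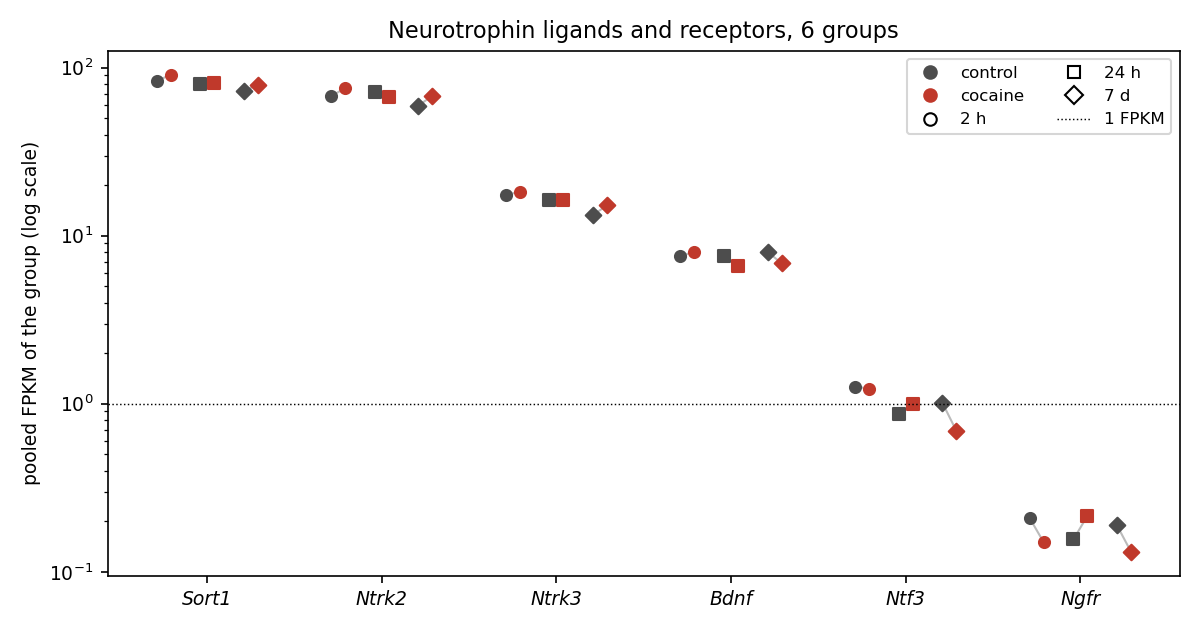
Pooled FPKM (log scale) of the 6 members in the control (grey) and cocaine (red) groups at 2 h (circles), 24 h (squares) and 7 d (diamonds), with 1 value per group and no error bars because no values per library are given. The order of the members is the same in all groups, and the dotted line marks 1 FPKM, which Ngfr does not reach in any group.

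The tissue carried the markers of cortex. The neuronal list (Snap25, Rbfox3, Syt1, Slc17a7, Camk2a and Gad1, with the row of Syt1 failed at 7 d) had no gene under 69.3 FPKM, whereas the choroid plexus list did not exceed 1.90 FPKM for any gene apart from Ttr in the cocaine group at 7 d (6.54 FPKM). Of the neuronal markers, 5 of 6 were higher in cocaine at 2 h, 4 of 6 at 24 h and 4 of 5 at 7 d, with median log2 ratios of 0.04, 0.02 and 0.06. Their sum, to which Snap25 and Camk2a gave the most, was 3384 FPKM in control and 3411 in cocaine at 2 h, 3553 and 3451 at 24 h, then 3050 and 3103 at 7 d. Markers higher in cocaine at 2 h, 24 h and 7 d numbered 0 of 3, 1 of 5 and 2 of 5 for oligodendrocytes, 1, 0 and 2 of 2 for their precursors, 4, 1 and 3 of 5 for microglia, and 3, 2 and 4 of 4 for pericytes and smooth muscle. The same counts were 5, 0 and 3 of 5 for meningeal fibroblasts, 3, 1 and 3 of 4 for choroid plexus, 3, 4 and 3 of 6 for striatal neurons and 1, 1 and 2 of 4 for olfactory bulb. Their part in the values of the members was not tested. In bulk tissue, fewer cells of a type and less RNA per cell cannot be told apart.

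No member with at least 1 FPKM differed by more than 1.2-fold between cocaine and control. A gene was counted as past 1.2-fold when its log2 ratio, log2((cocaine + 0.1)/(control + 0.1)) of the pooled FPKM, exceeded that size in either direction. By this count 1 of 6 members was past 1.2-fold at 2 h (Ngfr), 1 at 24 h (Ngfr) and 2 at 7 d (Ntf3 and Ngfr), against 17.8%, 11.7% and 20% of all genes with a mean of at least 1 FPKM (13262, 13477 and 13310 genes). All of these had a mean under 1 FPKM at the time in question. Of the members with a mean of at least 1 FPKM (5 at 2 h, 4 at 24 h and 4 at 7 d), 0 were past 1.2-fold at any time. Their median log2 ratios were 0.09, -0.05 and 0.16 in order of time, beside medians over all such genes of 0.02, 0.01 and -0.01. With Ntf3 and Ngfr counted at every time, the medians over the 6 members were 0.08, 0.02 and -0.05. At 1.5-fold, 0 of 6 members were past the limit at any time, against 4.05%, 3.22% and 3.52% of those genes.

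Bdnf (chr2:109674700-109727007 of GRCm38 at 2 h) is the ligand of TrkB. It had 7.55 FPKM in control and 8.05 in cocaine at 2 h, 7.61 and 6.62 at 24 h, then 8.01 and 6.84 at 7 d. The cocaine value was the highest of the 6 groups at 2 h and lay below all 3 control values at 24 h and 7 d. The log2 ratios were 0.09, -0.20 and -0.22 in that order. At 24 h 8.98% of the genes with at least 1 FPKM had a lower log2 ratio than Bdnf, and at 7 d 15.1% did. Among genes from 5 to under 20 FPKM, the middle 90% of log2 ratios ran from -0.26 to 0.35 at 2 h, -0.21 to 0.27 at 24 h and -0.34 to 0.28 at 7 d, so that Bdnf lay inside this range at each time, close to its lower end at 24 h. At 7 d the log2 ratio of Bdnf became -0.27, past 1.2-fold, after the median log2 ratio of genes of similar transcript length was subtracted. The 7 d row of Bdnf starts upstream of the others, at chr2:109670288-109727007, and that table lists a second Bdnf row there (0.443 FPKM in control and 0.253 in cocaine), which was not used.

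The row of Bdnf holds 1 value for all its transcription starts, so a change at 1 start cannot be read from it. RefSeq lists 7 starts for Bdnf in GRCm38.p6, and a search of the 250 bases before each for the CRE core (CGTCA on either strand, the core of the cAMP response element TGACGTCA, which CREB binds) found it at 1 of them, start 3 counted along the strand of the gene. The core was in 17.8% of 32851 promoters of this length, and the full element TGACGTCA, which holds the core, in 1.55% of them and was before 0 of the 7 Bdnf starts and in neither the Fos nor the Npas4 window. The sequence before start 3 is shown with those of Fos and Npas4, since both are activity-regulated genes past 1.2-fold higher in cocaine at all 3 times, whereas Bdnf was within 1.2-fold at each. The sequences are RefSeq promoters of GRCm38.p6, written 5′ to 3′ on the strand of the gene and ending at the base before the start, with CRE cores in capitals.
Bdnf start 3, chr2:109692186-109692435, plus strand: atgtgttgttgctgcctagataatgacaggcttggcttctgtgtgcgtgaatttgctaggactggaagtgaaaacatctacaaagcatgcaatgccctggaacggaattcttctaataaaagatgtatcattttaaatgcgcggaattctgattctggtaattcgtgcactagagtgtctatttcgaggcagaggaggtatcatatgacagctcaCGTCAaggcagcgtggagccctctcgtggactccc
Fos, chr12:85473640-85473889, plus strand: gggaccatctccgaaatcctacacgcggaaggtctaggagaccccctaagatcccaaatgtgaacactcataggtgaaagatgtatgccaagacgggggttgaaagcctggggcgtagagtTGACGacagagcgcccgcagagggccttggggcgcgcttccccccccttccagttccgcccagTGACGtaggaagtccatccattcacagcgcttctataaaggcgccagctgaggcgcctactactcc
Npas4, chr19:4989972-4990221, minus strand: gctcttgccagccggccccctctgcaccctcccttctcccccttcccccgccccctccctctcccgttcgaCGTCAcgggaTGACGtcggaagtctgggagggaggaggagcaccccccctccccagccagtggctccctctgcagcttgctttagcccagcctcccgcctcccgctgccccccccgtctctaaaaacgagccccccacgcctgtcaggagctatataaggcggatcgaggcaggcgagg
Each of the Fos and Npas4 windows held 2 cores and the Bdnf window 1. Fos and Npas4 were chosen after their values were seen, and the windows of other activity-responsive genes were not compared. Whether the number of cores bears on the log2 ratios was not tested. The letters TCGTG on either strand, the core bound by NPAS4 with its partner, occurred 2 times each in the windows before Bdnf starts 1 and 3. They occurred 0 times in the Fos and Npas4 windows, and were in 13.3% of all promoters. A match is a run of letters and was not tested as a site. Of the 6 members, 4 had a promoter entry (Bdnf, Ntf3, Ntrk2 and Ngfr), and the CRE core was found in none of the windows of Ntf3, Ntrk2 and Ngfr.

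Ntf3 (chr6:126101411-126166744), which encodes neurotrophin-3, was near 1 FPKM in every group. It had 1.27 FPKM in control and 1.23 in cocaine at 2 h, 0.865 and 0.999 at 24 h, then 1.01 and 0.689 at 7 d. The cocaine value at 7 d was the lowest of the 6, but the control values alone spanned 0.50 on the log2 scale. The log2 ratio was -0.04, 0.19 and -0.49 in that order. Of genes from 0.5 to under 2 FPKM, 41.1%, 34.1% and 39.3% were past 1.2-fold at 2 h, 24 h and 7 d, and their middle 90% at 7 d ran from -0.61 to 0.61, which includes Ntf3.

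Ntrk2 (chr13:58806578-59134263), which encodes the BDNF receptor TrkB, had at 2 h a higher level than 92.5% of the genes with at least 1 FPKM. It had 67.9 FPKM in control and 75.4 in cocaine at 2 h, 71.5 and 66.9 at 24 h, then 59.5 and 68.1 at 7 d. The control value at 7 d was the lowest of the 6 groups, and the cocaine value beside it lay between the control values of 2 h and 24 h. The log2 ratio was 0.15, -0.09 and 0.19 at 2 h, 24 h and 7 d, none past 1.2-fold. Among genes from 50 to under 100 FPKM the middle 90% ran from -0.15 to 0.21 at 2 h, -0.15 to 0.14 at 24 h and -0.35 to 0.20 at 7 d, and Ntrk2 lay inside it each time. The annotated span of Gm53063 overlaps that of Ntrk2, and whether their exons overlap was not examined. The row of Ntrk2 begins and ends slightly farther out at 7 d (chr13:58806463-59135514).

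Astrocyte markers had the same signs as Ntrk2 at each time, but this was not particular to astrocytes. The median log2 ratios of oligodendrocyte precursors, microglia, endothelium, meningeal fibroblasts and choroid plexus also had these signs. Those of neurons, oligodendrocytes, pericytes and smooth muscle, striatal neurons, olfactory bulb and cholinergic neurons did not. Of Gfap, Aqp4, Slc1a3, Aldh1l1 and Gja1, 5 of 5 were higher in cocaine at 2 h, 0 of 5 at 24 h and 5 of 5 at 7 d. Their median log2 ratio was 0.15, -0.22 and 0.15. Their summed FPKM was 319 in control and 351 in cocaine at 2 h, 367 and 327 at 24 h, then 313 and 351 at 7 d, and none of the 5 was under 23.7 FPKM in any group. Endothelial markers (Cldn5, Flt1, Pecam1 and Kdr) were higher in cocaine for 4 of 4 at 2 h, 1 of 4 at 24 h and 4 of 4 at 7 d. The part of these cells in the values of Ntrk2 was not tested.

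Ntrk3 (chr7:78174758-78581038), which encodes the neurotrophin-3 receptor TrkC, had 17.5 FPKM in control and 18.2 in cocaine at 2 h, 16.3 and 16.4 at 24 h, then 13.3 and 15.2 at 7 d. Control and cocaine nearly coincided at 24 h, and both 7 d values were below those of the earlier times, although the 7 d row covers a shorter locus (chr7:78192337-78578438). The log2 ratio was 0.06 at 2 h, 0.00 at 24 h (0.002, or -0.006 when centred on the median of all genes) and 0.19 at 7 d. At 24 h, 98.2% of all genes had a larger ratio in size. The annotated span of Gm39038 overlaps that of Ntrk3, and whether their exons overlap was not examined.

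Ngfr (chr11:95568818-95587735), which encodes p75NTR, was barely detected. It had 0.208 FPKM in control and 0.150 in cocaine at 2 h, 0.156 and 0.215 at 24 h, then 0.189 and 0.131 at 7 d. Control and cocaine values overlapped across the times, and the log2 ratios of -0.30, 0.30 and -0.32 changed sign between them. Of genes from 0.1 to under 0.5 FPKM, 58.4%, 55.8% and 55.8% were past 1.2-fold, so a ratio of this size was the more common outcome at this level. Markers of cholinergic neurons, the forebrain cells best known for p75NTR, were as scarce, with Chat, Slc18a3 and Slc5a7 each between 0.0912 and 0.249 FPKM and their sum between 0.409 and 0.529 FPKM. Of these, 3, 2 and 2 of 3 were higher in cocaine at 2 h, 24 h and 7 d. The part of cholinergic neurons or of other cells in the values of Ngfr was not tested.

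Sort1 (chr3:108283898-108362382), which encodes sortilin, had 82.9 FPKM in control and 91.0 in cocaine at 2 h, 79.5 and 81.6 at 24 h, then 72.6 and 79.1 at 7 d. It was higher in cocaine at each time, by 0.13, 0.04 and 0.12 on the log2 scale, all inside the middle 90% of genes from 50 to under 100 FPKM. With the median of genes of similar transcript length subtracted, the 7 d log2 ratio of Sort1 was -0.01 and that of Ntrk2 was 0.05. Longer transcripts had higher log2 ratios at 7 d, with Spearman's rho of 0.48 over 10938 genes (genes are no replicates), and less so at 2 h (0.16) and 24 h (0.09). The longest transcripts of Ntrk2 and Sort1 have 8541 and 6796 nt, against 4265 nt for Bdnf and 1427 nt for Ntf3.

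**Figure D2:**
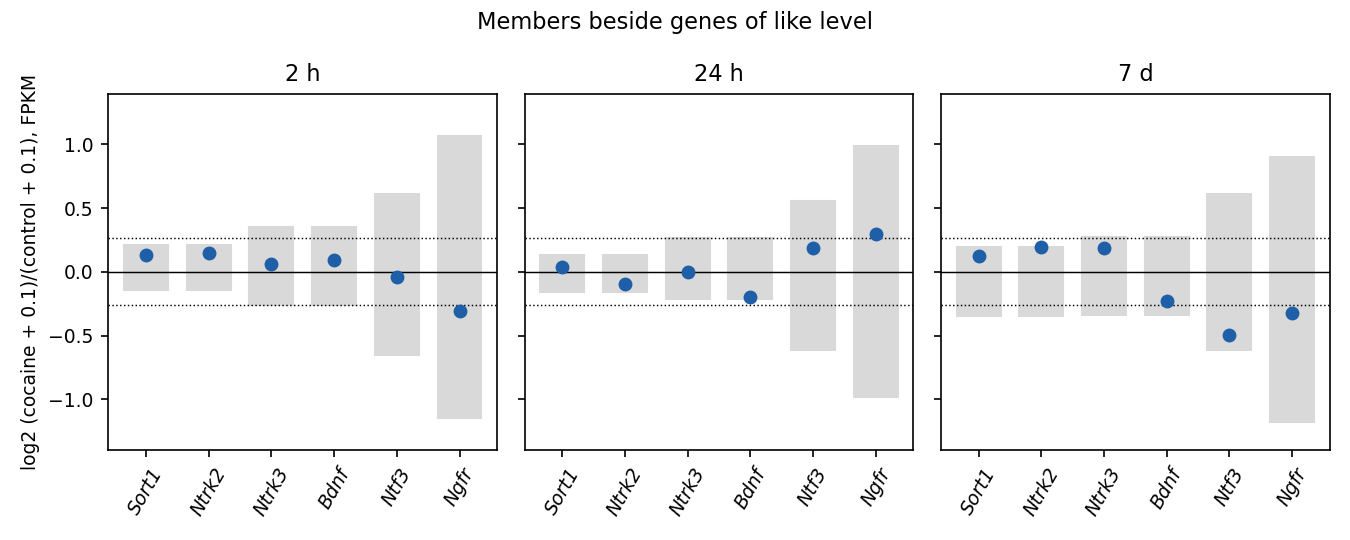
Log2 ratio of cocaine over control for the 6 members (blue points) at 2 h, 24 h and 7 d, with the middle 90% of all genes of like level (grey bars, from 0.1 to 0.5, 0.5 to 2, 5 to 20 and 50 to 100 FPKM) and 1.2-fold in either direction (dotted lines). All 18 points lie within the grey bars, which widen towards the low levels of Ntf3 and Ngfr.

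Ratios of ligand to receptor within a group do not depend on how the groups were scaled to each other, but a trend with transcript length does not cancel in them. Ntrk2 (8541 nt) is longer than Bdnf (4265 nt), and Ntrk3 (3300 nt) than Ntf3 (1427 nt). With the length trend removed, the 7 d log2 ratios were -0.27 for Bdnf, 0.05 for Ntrk2, -0.37 for Ntf3 and 0.17 for Ntrk3. The 7 d rows of Bdnf and Ntrk3 also span other positions than before, and Ntf3 had a mean under 1 FPKM at 24 h and 7 d. The FPKM of Bdnf was 0.111 of that of Ntrk2 in control and 0.107 in cocaine at 2 h, 0.106 and 0.0989 at 24 h, then 0.134 and 0.10 at 7 d. The difference of cocaine less control on the log2 scale was -0.06, -0.10 and -0.42. The control group at 7 d was the one that stood apart, since the other 5 groups lay between 0.0989 and 0.111. The FPKM of Ntf3 was 0.0723 of that of Ntrk3 in control and 0.0675 in cocaine at 2 h, 0.0529 and 0.0610 at 24 h, then 0.0762 and 0.0454 at 7 d, so that both 7 d values lay outside the range of the other 4 groups, control above and cocaine below it. Ntrk2 stood at 3.88 to 4.49 times the FPKM of Ntrk3 over the 6 groups, and at 4.48 and 4.49 times in control and cocaine at 7 d.

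The other genes of the pathway came from a list of 81 genes in 6 groups, of which 76, 76 and 74 had a mean of at least 1 FPKM at 2 h, 24 h and 7 d. Of these, 24 were past 1.2-fold higher in cocaine and 3 lower at 2 h, 12 higher and 4 lower at 24 h, and 13 higher and 1 lower at 7 d. Among all genes with at least 1 FPKM, 10.6% were higher and 7.20% lower at 2 h, 6.12% and 5.54% at 24 h, then 8.16% and 11.9% at 7 d. The medians of the list were 0.11, 0.03 and 0.05. Most of the genes past 1.2-fold belonged to the group of activity- and BDNF-responsive genes, which was chosen with its behaviour in these data known. These splits moved with the scaling of the groups to each other. Scaled to the same upper quartile, 22 genes of the list were higher and 5 lower at 2 h, with 1128 higher and 1184 lower among all genes in place of 1400 and 955. At 7 d that scaling gave 20 higher and 1 lower in the list, with 1787 higher and 1026 lower among all genes in place of 1086 and 1581, and removal of the length trend gave 665 and 584.

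Outside the members, Ntf5, which encodes neurotrophin-4, another ligand of TrkB, lay between 0.0959 and 0.169 FPKM. Of the 7 receptors and co-receptors listed at 1 FPKM or more, 1 was past 1.2-fold at any time, Sorcs3, a relative of sortilin, with 10.4 FPKM in control and 8.08 in cocaine at 24 h (log2 -0.35). That is 14.3% of the 7 at 24 h, against 11.7% of all genes with at least 1 FPKM.

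Among the 9 genes of precursor processing at 1 FPKM or more, 2 were higher and 1 lower past 1.2-fold at 2 h, 0 at 24 h and 1 higher at 7 d. In order of time these were 33.3%, 0% and 11.1% of the group, against 17.8%, 11.7% and 20% of all genes with at least 1 FPKM. The share was thus below that of all genes at 24 h and 7 d. Furin, a protease that cleaves pro-neurotrophins in the secretory pathway, had 5.04 FPKM in control and 7.41 in cocaine at 2 h, 5.55 and 6.47 at 24 h, then 4.04 and 5.20 at 7 d. The log2 ratio of Furin was 0.55, 0.22 and 0.36, above the middle 90% of genes from 5 to under 20 FPKM at 2 h. Plat, the tissue plasminogen activator that acts on extracellular proBDNF through plasmin, had 8.08 FPKM in control and 11.0 in cocaine at 2 h (log2 0.44), and Pcsk5, another convertase, had 1.28 and 0.996 (log2 -0.34). At the level of Pcsk5, from 0.5 to under 2 FPKM, 41.1% of genes were past 1.2-fold at 2 h.

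Downstream of the Trk receptors, 5 of 22 adaptors and effectors were higher and 1 lower past 1.2-fold at 2 h. At 24 h 1 was higher and at 7 d 3 were higher, with the others within 1.2-fold. In order of time these were 27.3%, 4.55% and 13.6% of the group, against 17.8%, 11.7% and 20% of all genes with at least 1 FPKM. The share was thus below that of all genes at 24 h and 7 d. Irs2, an insulin receptor substrate that links receptor tyrosine kinases to PI3K, had 5.30 FPKM in control and 12.4 in cocaine at 2 h, 4.59 and 6.29 at 24 h, then 3.63 and 4.67 at 7 d (log2 1.21, 0.45 and 0.36). Irs2 was the one gene of this group higher past 1.2-fold at all 3 times. Crkl and Sh2b2, adaptors of tyrosine kinases, had log2 ratios of 0.40 and 0.38 at 2 h, and Shc3, a neuronal Shc adaptor, had 15.9 FPKM in control and 21.4 in cocaine at 7 d (log2 0.43). Sh2b2 had only 1.26 FPKM in control and 1.67 in cocaine at 2 h. At that level, from 0.5 to under 2 FPKM, 41.1% of genes were past 1.2-fold. The remaining genes of this group past 1.2-fold, named after their values were seen, were Shc1 (log2 0.29), Rapgef1 (0.27) and, lower in cocaine, the phospholipase gene Plcg1 (-0.31) at 2 h, and Frs2 (0.27) at 7 d. Of the 10 adaptors of p75NTR, 0 were past 1.2-fold at 2 h and 7 d, and 1 at 24 h, the kinase gene Irak1 (10.9 FPKM in control and 8.45 in cocaine, log2 -0.36). In order of time these were 0%, 10% and 0% of the adaptors of p75NTR, against 17.8%, 11.7% and 20% of all genes with at least 1 FPKM.

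Of the 13 regulators of Bdnf transcription at 1 FPKM or more, 4 were higher and 1 lower past 1.2-fold at 2 h, and 2 higher at 24 h and at 7 d. In order of time these were 38.5%, 15.4% and 15.4% of the group, against 17.8%, 11.7% and 20% of all genes with at least 1 FPKM. Npas4, counted here at each time, also belongs to the list of activity- and BDNF-responsive genes. Npas4, an activity-induced transcription factor, had 1.15 FPKM in control and 2.55 in cocaine at 2 h, 1.38 and 2.32 at 24 h, then 1.44 and 2.15 at 7 d (log2 1.09, 0.70 and 0.55). Bhlhe40, a repressor of the bHLH family, had 36.2 FPKM in control and 80.8 in cocaine at 2 h and 28.1 and 48.1 at 24 h (log2 1.16 and 0.78). Srf, serum response factor, had a log2 ratio of 0.48 at 2 h, and Carf, the calcium response factor named for its binding to the Bdnf gene, one of -0.43. Named after their values were seen, Mef2d (log2 0.32 at 2 h) and the CREB coactivator gene Crtc1 (0.27 at 7 d) made up the rest.

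**Figure D3:**
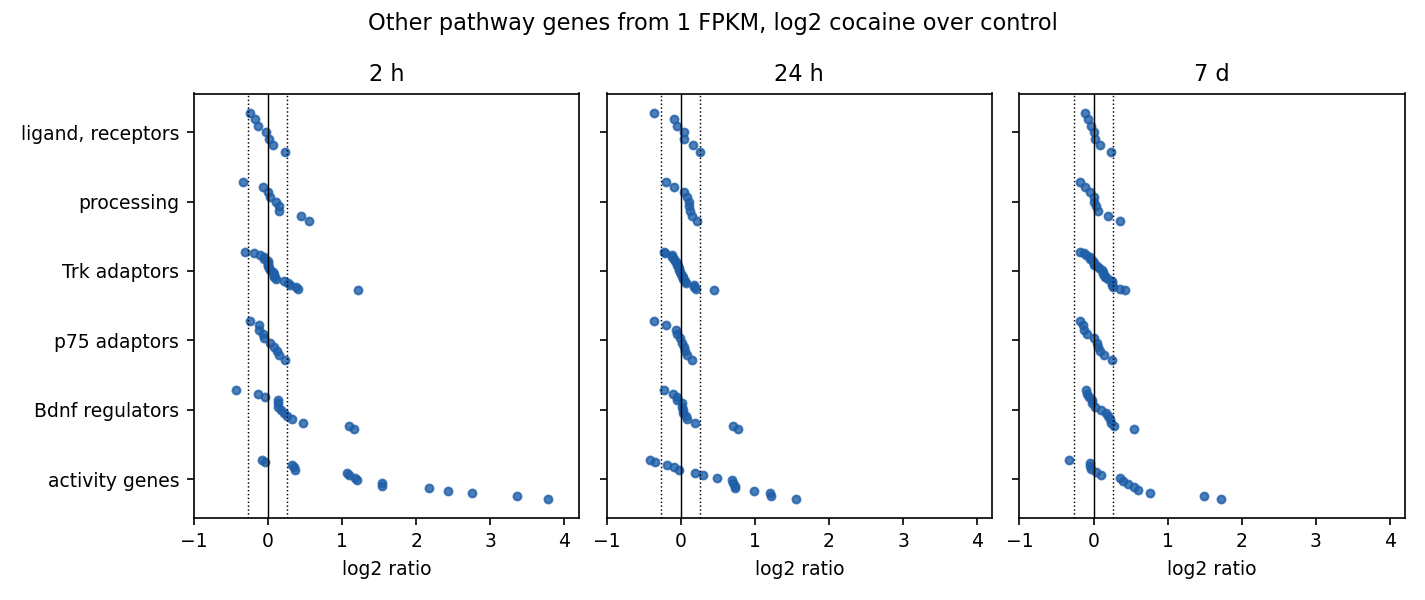
Log2 ratio of cocaine over control of the other pathway genes with a mean of at least 1 FPKM, 1 point per gene, in 6 groups at 2 h, 24 h and 7 d, with dotted lines at 1.2-fold. The activity genes reach 3.77 at 2 h, whereas the receptors and the p75 adaptors stay between -0.36 and 0.26.

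The log2 ratios of Bdnf (0.09, -0.20 and -0.22) were below the median of the activity-responsive genes at each time, but not below every gene of that list. The list was chosen with its behaviour in these data known, so its high medians were built in and the contrast with Bdnf is a description only. Of the 16 genes of that list, 14 were higher in cocaine past 1.2-fold at 2 h and 0 lower, with a median log2 ratio of 1.19. At 24 h 10 were higher and 2 lower (median 0.59), and at 7 d 8 of 14 genes at 1 FPKM or more were higher and 1 lower (median 0.38). The genes that were lower, named after their values were seen, were Egr3 (log2 -0.42) and Nptx2 (-0.35) at 24 h and Inhba (-0.34) at 7 d. Arc, whose product acts at the postsynaptic density, had 5.59 FPKM in control and 77.8 in cocaine at 2 h (log2 3.77), and Egr2 had 0.466 and 5.72 (log2 3.36). Fos had 2.02 and 14.3 (log2 2.76) and Junb 11.4 and 61.6 (log2 2.43) at the same time. The log2 ratio of 0.09 for Bdnf at 2 h was higher than that of 67.2% of all genes.

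**Figure D4:**
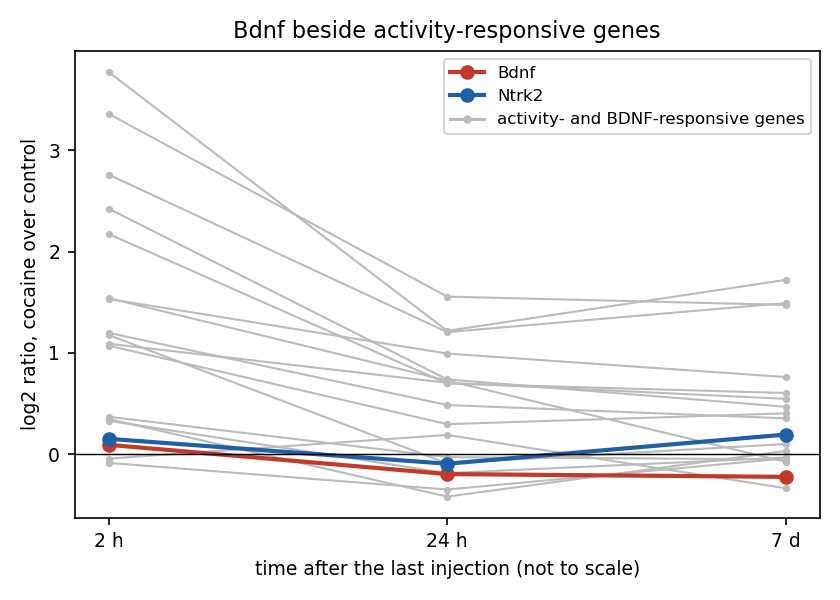
Log2 ratio of cocaine over control for Bdnf (red), Ntrk2 (blue) and 16 activity- and BDNF-responsive genes (grey) at 2 h, 24 h and 7 d, with the time axis not to scale. Bdnf stays between -0.22 and 0.09, while grey lines reach 3.77 at 2 h. The grey genes were chosen with their behaviour in these data known.

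The genes with the pattern most like that of each member were found over the 6 group values of log2(FPKM + 0.1), centred per gene, by Euclidean distance among 11745 genes (11744 where the member itself was among them). With 6 values from separately normalised tables, many genes lie close to any pattern, so these names are a description only. The 5 nearest to Bdnf were Hpgd, Asah1, Sarnp, Tmem150b and Ebpl, at distances from 0.05 to 0.09 with Pearson's r from 0.94 to 0.98. Hpgd, which degrades prostaglandins, had log2 ratios of 0.13, -0.21 and -0.20. The 2 nearest to Ntrk2 were Asb7 and Wdfy3, to Ntrk3 Ccnf and Faxc, and to Sort1 Adora1, the adenosine A1 receptor gene, and Acox3. For Ntf3 they were 1110017D15Rik and Neurod6, a transcription factor of cortical excitatory neurons, whose log2 ratio at 7 d was -0.41, and for Ngfr 4933427D14Rik and Sh3yl1.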

How the data were processed

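Prefrontal cortex RNA from 12 libraries (6 groups of 2, each a pool of 5 mice) was sequenced after poly(A) selection. Per the methods and the submitters' processing notes, the authors trimmed reads, mapped them with TopHat2 (2.0.12), retained those with a single position and ran Cufflinks (2.2.1) and Cuffdiff per time point. They deposited 3 tables with 1 FPKM per group, pooled over its libraries; the fold changes, test statistics, p values and q values beside them are the authors' own comparison and were not used. The loci are GRCm38 positions (99.7% to 99.8% of genes overlapped their RefSeq locus), although the methods name mm9; 1 was added to each start.

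The tables name their groups C_2H and 2H and likewise, which the labels do not settle. The first was taken as control, because 376 of 453, 13 of 14 and 487 of 528 genes matched the authors' lists headed saline and cocaine within 2% that way at 2 h, 24 h and 7 d, and 0 the other way.

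Rows marked as failed (175, 169 and 204) and rows without a gene name were left out. A name on several rows took the longest locus, then the higher mean. Log2 ratios used a pseudocount of 0.1, which understates changes of low genes. Counts over all genes used a mean of at least 1 FPKM. Depth per library is not given by the tables: the most frequent ratio of cocaine to control among rows under 0.1 FPKM was 0.86, 0.93 and 0.81, in 66 of 2662, 76 of 3008 and 60 of 3027 rows, too few to recover whole fragments. Some pathway genes are not reported here and enter no list count. Members and lists were chosen with earlier results of these data known. Named genes were the members, up to 4 pathway genes per group past 1.2-fold at any time, Ntf5, and the nearest genes by pattern (5 for Bdnf, 2 for the others); other pathway genes past 1.2-fold were named after their values were seen, and Fos and Npas4 were chosen for their promoters in the same way. Marker lists also covered oligodendrocytes, their precursors, microglia, pericytes, meningeal fibroblasts, striatal neurons and olfactory bulb. Transcript lengths (longest protein-coding transcript of the symbol) were found for 82.1% to 82.8% of genes. Other settings were the pseudocount, the filter, 2 scalings, the length trend, summed rows, 1.5-fold, and rows with status OK. The steps were tested on simulated data with Python 3.11.15, numpy 2.4.6, pandas 2.3.3, scipy 1.17.1 and matplotlib 3.10.9.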

Additional observations from a re-analysis of the deposited data

Results flagged for a closer look

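Ngfr and Egr3 had log2 ratios past 1.2-fold in opposite directions at different times. Ngfr was at -0.30 at 2 h, 0.30 at 24 h and -0.32 at 7 d, all at under 0.22 FPKM, and Egr3, an activity-induced zinc finger gene, was at 0.35 at 2 h (37.6 FPKM in control and 47.9 in cocaine) and -0.42 at 24 h (51.9 and 38.8). With 1 pooled value per group, the difference between times was not tested for either gene.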

How the results depend on the processing

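No paired analysis was possible because the tables hold 1 pooled value per group, which carries no replicate number, and no replicate could be left out for the same reason. The count of members past 1.2-fold (1, 1 and 2 at 2 h, 24 h and 7 d) was 0, 0 and 0 with a pseudocount of 1 (12.3%, 7.47% and 13.9% of all genes), at a mean of at least 5 FPKM (10.8%, 6.52% and 15.7%) and at 1.5-fold (4.05%, 3.22% and 3.52%). With the length trend removed it was 1, 1 and 3 (14%, 8.45% and 11.4% of genes with a known length). It was 0, 0 and 1 with only rows of status OK, a setting chosen after seeing the data, which has no row for Ngfr. The pathway count of 27, 16 and 14 was 13, 9 and 4 at 1.5-fold. With no filter on low values the median of the members at 7 d was -0.051 in place of 0.16, and at 24 h 0.02 in place of -0.05, because Ntf3 and Ngfr then enter. Bdnf ranged over the settings from 0.05 to 0.09 at 2 h, -0.22 to -0.18 at 24 h and -0.27 to -0.16 at 7 d, with the same sign in all. Of the other members without a ratio past 1.2-fold, the sign turned for Ntrk3 at 24 h under both scalings and with the length trend removed, and for Sort1 at 7 d with the length trend removed. No listed result turned its direction while past 1.2-fold. The pooling and the unknown depth set the limit: for Ngfr and Ntf3 a ratio of 1.2-fold lies within what most or many genes of that level show.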
